A study of Mus musculus with 2 samples.

Results

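The genes described here encode molecular chaperones and the proteins that work with them. They are the 87 protein-coding genes, of 55536 mouse genes in the tables, whose names begin with Hsp90, with Hspa, Hspb, Hspd, Hspe or Hsph, with Dnaja, Dnajb or Dnajc, with Bag or with Cct, each followed by a digit, or are Cryab. The name alone chose them and no measured value entered the rule, but the rule was set with earlier results of these data known. They fall into 3 HSP90 genes, 14 genes of the HSP70 and HSP110 group, 9 small heat shock protein genes, 10 chaperonin genes, 45 J-domain genes (4 DNAJA, 13 DNAJB and 28 DNAJC) and 6 BAG genes.

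Total RNA was sequenced from the hearts of 2 female B6CASTF1/J mice aged 36 days, the first-generation hybrid of the inbred strains C57BL/6J and CAST/EiJ. No treatment is given in the labels, both animals have the same genotype, and the libraries form 1 group with no other to compare it with. The labels give replicate 1 (animal 3) and replicate 2 (animal 4) separate biosamples but the same donor identifier. Every SD below therefore covers only the spread between these 2 libraries. The p-values of the binomial test and the intervals below reflect counting error alone, not spread between animals. The libraries held 38845613 and 38168674 mouse read counts, of which the 87 genes took 322264 and 279478. All 8 cardiomyocyte markers checked (such as Myh6 and Tnnt2) were detected in both libraries, and the 5 testis germ cell markers were listed at 0.

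Chaperones bind unfolded or partly folded proteins and keep them from clumping until they fold, are moved or are degraded. HSP70 proteins bind and release short stretches of a client in a cycle driven by ATP. J-domain proteins bring clients to HSP70 and start that cycle, while BAG proteins and the HSP110 branch help it let go of its nucleotide. HSP90 takes over late folding steps of kinases and receptors, the ring-shaped chaperonins enclose whole proteins, and small heat shock proteins hold unfolding ones without ATP. In heart muscle this network is known for the upkeep of the sarcomere, and mutations of CRYAB and BAG3 in people cause cardiomyopathy. Separate members serve the cytosol, the endoplasmic reticulum, where secreted and membrane proteins fold, and the mitochondrion.

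Levels are given in TPM (transcript abundance scaled to the same total in each library), which are scaled by gene length and so can be set against each other across genes. The pair of values after a gene is replicate 1 and then replicate 2. A gene counted as detected when both libraries gave it 1 TPM or more. By this measure 76 of the 87 genes were detected, which is 87.4%, beside 50.2% of the 22015 nuclear protein-coding genes. Detected members had a median of 22.1 TPM, and all detected protein-coding genes a median of 8.72. Together the 87 genes held 1.402% and 1.414% of nuclear protein-coding TPM. The 5 highest of them held 47.7 ± 1.09% of the members' own total (SD, n = 2) and the 10 highest 65.0 ± 1.01%.

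**Figure D1:**
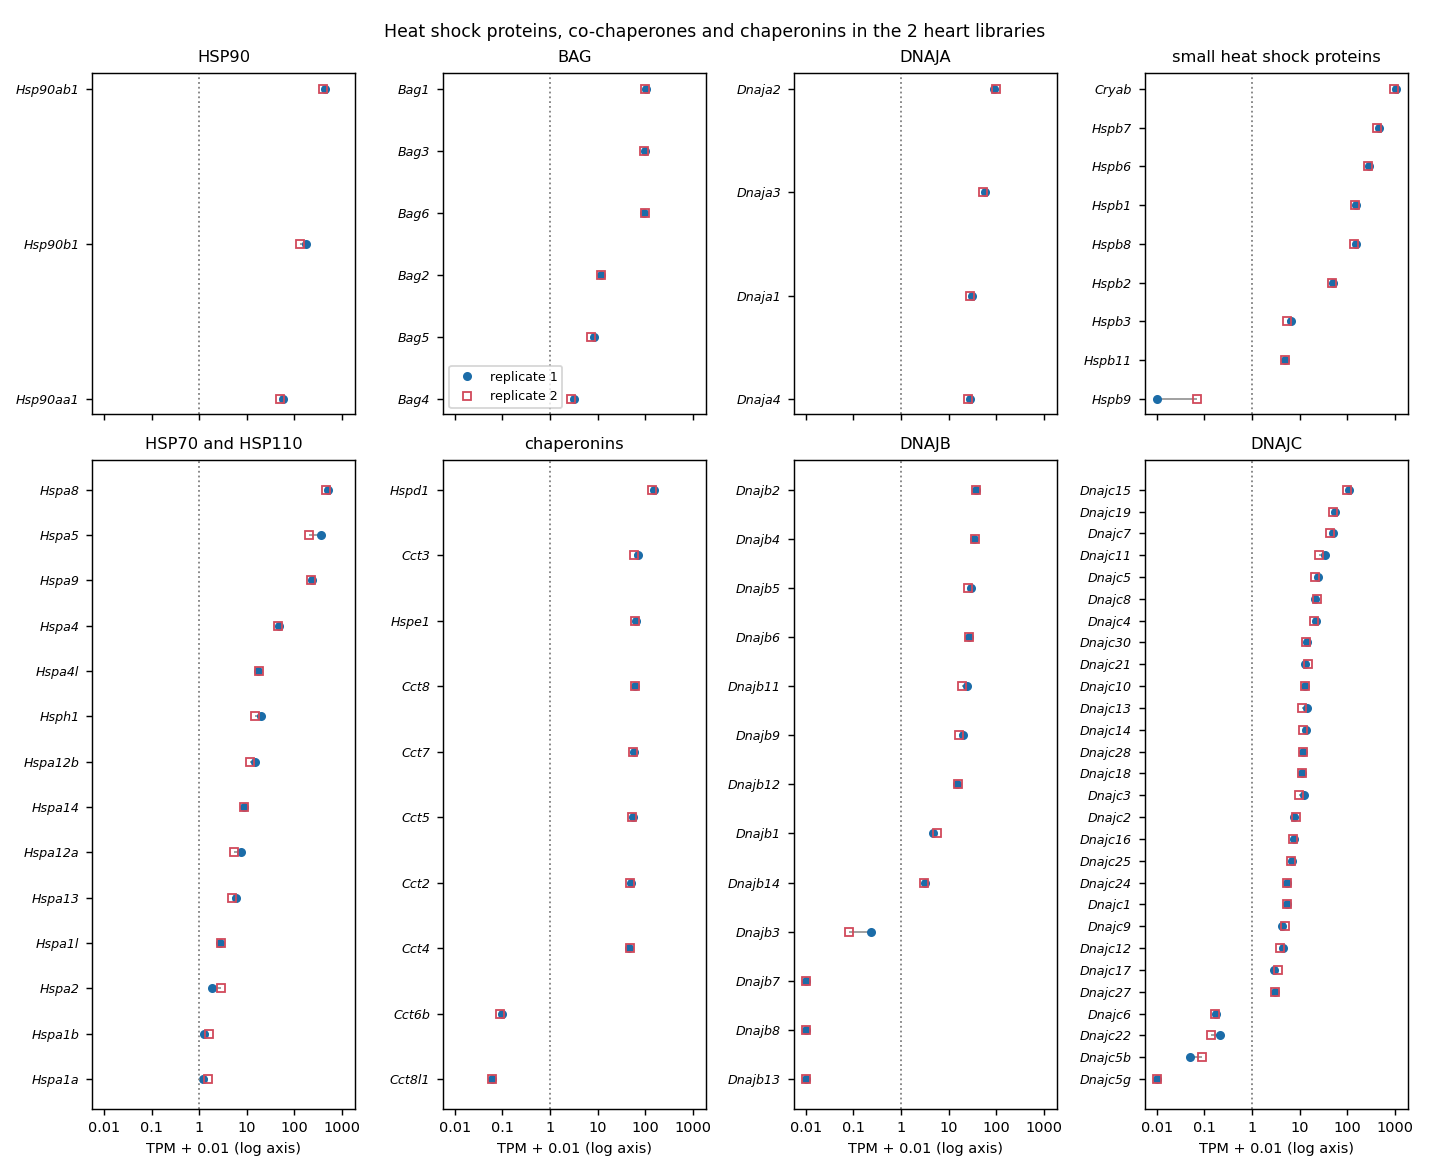
TPM of each of the 87 genes in both heart libraries, in 8 panels by family, on a log axis to which 0.01 was added. Filled circles are replicate 1, open squares replicate 2, and the dotted line marks 1 TPM. For nearly all genes the 2 marks overlap while the families span several orders of magnitude, and Hspa5 (367 and 204 TPM) is the most separated of the abundant genes.

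Small heat shock proteins were the most abundant family in TPM, with 37.7 ± 0.665% of the members' TPM from 8 detected genes. They did not lead in counts, where their mean share was 26.4%, beside 26.6% for the HSP70 and HSP110 group. Cryab, alpha-B crystallin, a holder of desmin and titin in muscle (ENSMUSG00000032060.10, mm10 chromosome 9, 50751325 to 50756636), stood at 1054 and 957 TPM. It ranked 39 among nuclear protein-coding genes and led all 87 members in both libraries. Hspb7, a heart-enriched member that binds actin filaments, had 458 and 429 TPM. Hspb6, which is phosphorylated by protein kinase A in cardiac muscle, had 281 and 270. Hspb1, an actin-associated member, had 153 and 146, and Hspb8, the partner of BAG3, had 156 and 139. Each of these 5 genes was above 100 TPM in both libraries. Hspb2, which was first found as a binding partner of myotonic dystrophy protein kinase, had 50.2 and 47.6 TPM. Hspb3, its partner in muscle, had 6.48 and 5.49, and Hspb11, a subunit of the intraflagellar transport particle, 5.06 and 4.97. Hspb9, a testis gene, had 0 and 0.06 TPM from 0 and 1 count.

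The lead of Cryab over Hspb7 holds per length only. Cryab had 20105 and 17916 counts and Hspb7 38468 and 34881, so Cryab made up 48.3 ± 0.590% of the family in TPM and 24.0 ± 0.221% in counts. In the transcript table the leading Cryab transcript was Cryab-204, a retained intron of 585 bases, with 52.6% and 49.8% of the gene's TPM. In a second deposited quantification, which used an index of transcripts, that transcript took 25.0% and 35.3%. How much of the Cryab signal belongs to protein-coding transcripts thus differed between the quantifications, whereas all of the Hspb7 signal lay on its single transcript.

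Cryab and Hspb2 lie on opposite strands with annotated starts 1029 bases apart, each inside the span of the other gene. The annotated gene spans share 1030 bases, and whether counting used strand is not given in the sources used here. Cryab lay 21.02-fold and 20.13-fold above Hspb2 in the 2 libraries, and 25.9-fold and 27.3-fold in the second quantification. In TPM, a pair so close on the chromosome thus differed more than 20-fold in each library. In counts, which are not divided by length, the difference was smaller: Cryab had 20105 and 17916 and Hspb2 1024 and 937.

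HSP70 genes held 20.1 ± 1.31% of the members' TPM, and all 14 were detected. The order at the top was the cytosolic Hspa8, the endoplasmic reticulum Hspa5 (also called BiP or GRP78) and the mitochondrial Hspa9 in replicate 1. In replicate 2 the last 2 exchanged places. Hspa8, which also strips clathrin from vesicles, had 498 and 462 TPM. Hspa5 had 367 and 204 TPM, and its part of the family was 29.9% in replicate 1 and 20.2% in replicate 2. Hspa9, the motor that pulls proteins through the inner membrane, had 233 and 224 TPM. These 3 genes mark 3 compartments, and the endoplasmic reticulum gene alone among them differed by more than 1.5-fold.

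The HSP110 branch, which exchanges the nucleotide of HSP70, was lower. Hspa4 had 46.8 and 45.3 TPM, Hspa4l 17.1 and 17.9, and Hsph1 20.1 and 14.5. The distant members Hspa12b, an endothelial gene, and Hspa12a had 15.2 and 11.6 and 7.48 and 5.38 TPM. Hspa14, which binds ribosomes, had 8.72 and 8.92, and Hspa13 of the endoplasmic reticulum 5.88 and 5.0.

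The stress-inducible HSP70 genes lay just above the 1 TPM that counted as detected. Hspa1a had 1.22 and 1.53 TPM, and its near-copy Hspa1b 1.24 and 1.63. Hspa8 exceeded Hspa1a 408-fold in replicate 1 and 302-fold in replicate 2. Their neighbour Hspa1l, known from testis, had 2.76 and 2.81 TPM. Hspa2, also best known from male germ cells, had 1.87 and 2.80, from 143 and 207 counts.

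Hspa1a and Hspa1b lie on chromosome 17 with 9951 bases between their annotated spans and share most of their sequence. Of the 50-base stretches in transcripts of Hspa1a, 60.3% also occur in transcripts of other genes, Hspa1b first, and 62.3% of those of Hspa1b do so. The deposited posterior SD of the count, the part of the error that comes from dividing shared reads, was 9.45% and 7.09% of the Hspa1a count.  The likeness extends upstream, where the 250 bases before the start differ at 3 positions. Both windows are shown with the differing bases in capitals (5′ to 3′, RefSeq, GRCm38.p6, the assembly of mm10).
Hspa1a (chr17:34972157-34972406, minus strand): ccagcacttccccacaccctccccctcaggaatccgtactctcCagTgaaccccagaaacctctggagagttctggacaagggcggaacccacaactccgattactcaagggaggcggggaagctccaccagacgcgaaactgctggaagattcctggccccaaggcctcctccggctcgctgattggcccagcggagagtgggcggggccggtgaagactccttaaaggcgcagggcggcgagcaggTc
Hspa1b (chr17:34959239-34959488, minus strand): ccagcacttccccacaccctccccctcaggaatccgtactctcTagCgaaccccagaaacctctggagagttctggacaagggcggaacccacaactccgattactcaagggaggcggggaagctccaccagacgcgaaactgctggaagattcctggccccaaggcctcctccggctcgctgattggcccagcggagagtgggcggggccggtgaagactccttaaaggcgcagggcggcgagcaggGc

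HSP90 genes held 11.4 ± 0.335% of the members' TPM. Hsp90ab1, the constitutive cytosolic form, had 441 and 406 TPM and made up 67.3 ± 3.01% of the family. Hsp90aa1, the inducible cytosolic form, had 56.6 and 49.2, so the constitutive form was 7.78-fold and 8.26-fold higher. Of the 50-base stretches of Hsp90aa1, 47.5% also occur in other genes, beside 3.44% for Hsp90ab1. The second quantification gave ratios of 6.43 and 6.79. Hsp90b1, the endoplasmic reticulum form (also called GRP94), had 179 and 130 TPM. Among helpers of HSP90 that the name rule does not cover, Smyd1, a myosin chaperone and methyltransferase of heart and skeletal muscle, had 140 and 126 TPM. Fkbp4, an immunophilin of steroid receptor complexes, had 131 and 115, and Unc45b, the myosin chaperone of striated muscle, 68.5 and 65.7. Its general counterpart Unc45a was the lowest of these 16 helpers at 7.81 and 6.09. All 16 were detected.

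Chaperonins held 9.75 ± 0.279% of the members' TPM. The mitochondrial pair of the barrel Hspd1 (HSP60) and its lid Hspe1 (HSP10) had 149 and 138 and 64.9 and 60.3 TPM. Hspd1 was 2.30-fold and 2.28-fold above Hspe1, an SD of 0.00937 around 2.29. In the second quantification the ratio was 1.74 and 1.71, so it differed less between the libraries than between the quantifications. The proteins assemble into a single chamber, and the genes share a promoter region on chromosome 1, where their annotated spans overlap by 112 bases on opposite strands. Of their 50-base stretches, 39.7% and 18.4% also occur in other genes, mostly processed pseudogenes.

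The cytosolic chaperonin, which folds actin and tubulin, is a ring of 8 different subunits. Under the name rule 6 of them were detected. Cct3 had 71.4 and 59.0 TPM, Cct8 62.1 and 60.9, Cct7 57.2 and 54.6, Cct5 55.2 and 53.8, Cct2 49.0 and 47.7 and Cct4 46.3 and 47.1. The other subunit genes are Tcp1 (76.0 and 70.8), which has another name, and Cct6a (32.4 and 34.5), which the annotation does not list as protein-coding. Over the full ring the mean levels spanned 33.4 to 73.4 TPM, a 2.20-fold range, and 1.92-fold in the second quantification. Cct6b, the testis form of the sixth subunit, had 0.09 and 0.08 TPM from 5 and 4 counts, and Cct8l1 had 0.05 in each from 3 counts. Prefoldin, which passes actin and tubulin to the ring, was led by Pfdn5 at 111 and 112 TPM, with Pfdn2 next by its mean at 30.9 and 34.5. Cryaa, the lens crystallin on the same list, was listed at 0 in both libraries.

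Of 45 J-domain genes, 37 were detected, and 26 had a mean of at least 10 TPM. Their summed level was 877 and 819 TPM beside 1226 and 1007 for HSP70 and HSP110, a ratio of 1.40 and 1.23 in favour of the latter. No J-domain gene dominated. Dnajc15, a regulator of import at the mitochondrial inner membrane, had the highest mean, with 110 and 97.7 TPM from 1948 and 1708 counts. Its leading transcript was Dnajc15-203, a non-coding processed transcript of 419 bases, with 62.4% and 62.6% of the gene's TPM. Dnaja2, a general partner of Hspa8, had 91.3 and 98.0 and so was level with it in replicate 2. Of its relatives, the mitochondrial Dnaja3 had 58.4 and 51.7, Dnaja1 30.6 and 28.8 and Dnaja4 28.1 and 25.7. Dnajc19, a part of the mitochondrial import motor whose loss in people causes a cardiomyopathy with ataxia, had 55.1 and 50.4. Its leading transcript was Dnajc19-205, a retained intron of 419 bases, with 58.3% and 51.8% of the gene's TPM. In the second quantification a protein-coding transcript led Dnajc19. For Dnaja2 a protein-coding transcript led in the first quantification. In the second, Dnaja2-202, a retained intron of 507 bases, led with 59.4% and 55.4%.

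Other J-domain genes had moderate levels. Dnajc7, which links HSP70 and HSP90, had 51.1 and 44.4 TPM. Dnajc11, of the complex that shapes the inner membrane folds of mitochondria, had 34.4 and 26.2, and Dnajc5, the cysteine string protein of secretory vesicles, 24.2 and 21.1. The DNAJB group was flat at its top, where Dnajb2 had 38.3 and 37.4 TPM, Dnajb4 34.7 and 35.3, Dnajb5 27.7 ± 3.22 (SD, n = 2) and Dnajb6, whose mutations cause a muscular dystrophy, 27.1 and 26.9. Dnajb11, a cofactor of Hspa5, followed with 24.8 and 19.4. Dnajb1, the heat-inducible partner of HSP70, had 4.79 and 5.78. Of the rest of that group, Dnajb9 had 19.6 and 16.4 TPM, Dnajb12 15.1 and 15.7, Dnajb14 3.18 and 3.01 and Dnajb3 0.23 and 0.07. By their means, the remaining detected DNAJC genes lay between Dnajc27 (3.04 and 2.99 TPM) and Dnajc8 (21.3 and 22.8). Dnajb7, Dnajb8, Dnajb13 and Dnajc5g had no count in either library, which allows at most 3 counts, or 0.0772 and 0.0786 CPM (counts scaled to library size). Dnajc5b had 0.04 and 0.08 TPM, Dnajc6, a clathrin uncoating factor of neurons, 0.17 and 0.16 and Dnajc22 0.20 and 0.13.

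All 6 BAG genes were detected, and 3 stood close together. Bag1 had 105 and 96.9 TPM, Bag3 96.5 and 92.8, and Bag6, which guards newly made tail-anchored proteins, 92.4 and 96.7. These 3 could not be put in a firm order, since Bag6 was lowest of them in replicate 1 and level with Bag1 in replicate 2. Bag2, an inhibitor of the ubiquitin ligase CHIP, had 11.93 and 11.98, Bag5 8.18 and 7.34 and Bag4 3.11 and 2.79. Bag3 joins Hspb8 and HSP70 in the removal of damaged sarcomere proteins. The ratio of Bag3 to Hspb8 was 0.617 and 0.667 in TPM.

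**Figure D2:**
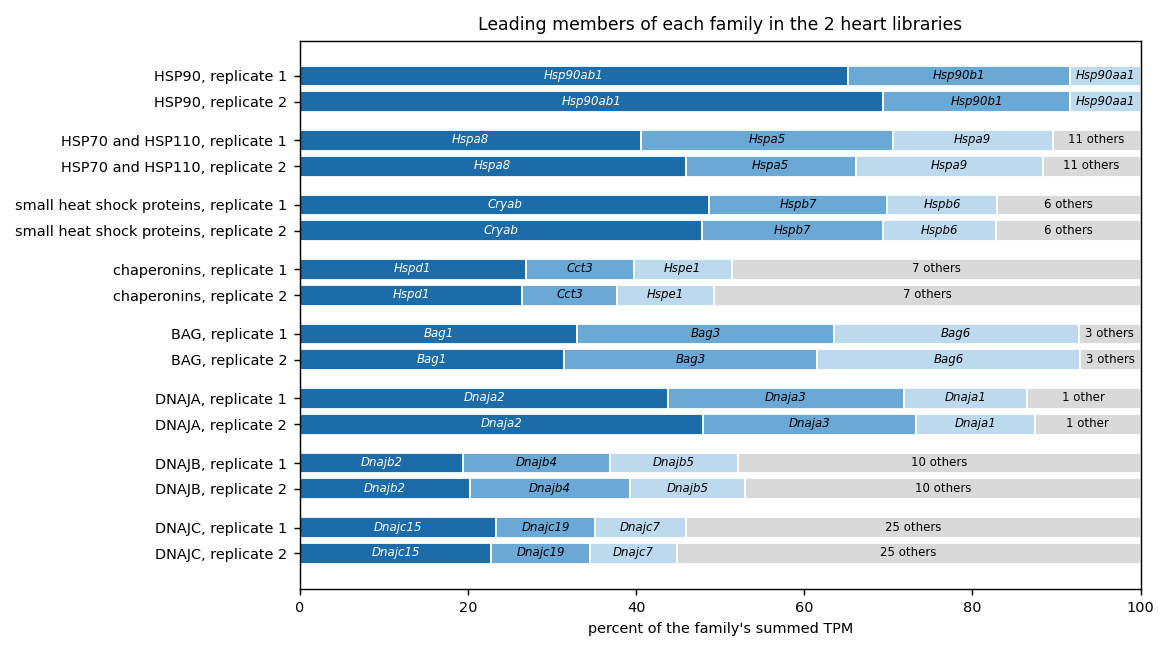
Percent of each family's summed TPM held by its 3 highest members, for replicate 1 and replicate 2 of the heart libraries (8 families, bars to 100%). Cryab holds 48.7% and 47.9% of its family, whereas Hspa5 goes from 29.9% to 20.2% of the HSP70 and HSP110 total.

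Genes that heat and other stress are known to induce were mixed in level. All 11 on that list were detected, but they ranged from Hspa1a at 1.22 and 1.53 TPM to Hspb1 at 153 and 146. The regulators of the heat shock response were modest. Hsf1, the main heat shock factor, had 15.3 and 13.2 TPM, Hsf2 5.65 and 6.49, Hsf4 0.76 and 0.94, and the HSF1-binding Hsbp1 61.2 and 54.6.

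The promoters of 70 of the 87 genes were found by symbol in RefSeq (GRCm38.p6), each as 250 bases before to 50 bases after a start. They were searched on both strands for the heat shock element that HSF1 binds, here 3 alternating units GAANNTTCNNGAA. Of the 70 genes, 4 held it, which is 5.71%, beside 179 of all 27025 genes in the table (0.662%). They were Dnajb6, Hspd1, Hspe1 and Hsph1, so 3 of the 10 matched heat-inducible genes. Hspd1 and Hspe1 share the same stretch, since their starts face away from each other. It holds 4 units in a row and therefore matches on both strands. The sites of Hspe1 and Dnajb6 are shown with the units in capitals.
Hspe1 (chr1:55088053-55088082, plus strand): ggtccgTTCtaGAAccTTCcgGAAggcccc
Dnajb6 (chr5:29735846-29735870, plus strand): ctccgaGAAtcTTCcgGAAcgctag
The 2 genes that share the element of 4 units were at 149 and 138 and at 64.9 and 60.3 TPM, in hearts with no stated stress. The windows of Hspa1a and Hspa1b above hold no exact match to these letters.

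The libraries were then compared gene by gene. Counts were set against library sizes scaled with TMM, an exact two-sided binomial test was run on each of the 13745 genes whose counts summed to 50 or more, and p-values were adjusted by the Benjamini-Hochberg method over all of them. Called genes are those with both an adjusted p under 0.05 and a ratio of 1.5-fold or more. Ratios are log2 of replicate 2 over replicate 1 with 95% counting intervals. The test compares the reads of 2 libraries, not conditions.

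Of the 77 members compared, 2 were called, 1 in each direction. Of all genes 3.55% were called, 2.06% lower and 1.49% higher in replicate 2, so 2 of 77 is near the background. The median log2 ratio was -0.02 over the members and -0.00 over all genes. Within 1.2-fold lay 65 of the 77 members (84.4%), beside 77.6% of all genes and 91.4% of the 3608 protein-coding genes at or above the members' median level. At 2-fold, which 1.54% of genes passed, no member was called. The edgeR exact test with a common dispersion, which allows for spread beyond counting, called 1.13% of genes and no member. That dispersion was estimated from the same 2 libraries taken as 1 group. It therefore contains the differences being tested and is not an independent measure of replicate spread. Under it the same 2 members had an unadjusted p under 0.05, beside 4.24% of all genes.

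The called member that was lower in replicate 2 was Hspa5, the master chaperone of the endoplasmic reticulum (ENSMUSG00000026864.13, mm10 chromosome 2, 34771970 to 34777547). It had 26329 counts in replicate 1 and 14346 in replicate 2, a log2 ratio of -0.77 (-0.80 to -0.74). This is 1.71-fold and the interval lies far from 0, but with edgeR's common dispersion the adjusted p was 0.0722. The second quantification gave -0.77 as well. The called member that was higher was Hspa2, at 143 and 207 counts and 0.63 (0.32 to 0.95). By edgeR its adjusted p was 0.835, and it was no longer called in the second quantification, where the ratio was 0.56.

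At any fold, 25 members (32.5%) had an adjusted p under 0.05, beside 21.9% of all genes and 38.2% of the protein-coding genes at or above the members' median level. Of these, 20 were lower in replicate 2 (26.0% of the 77), beside 11.9% of all genes and 23.5% of those protein-coding genes. The last set is not matched to the members in level, since it leaves out genes below their median. The 20 lower members ranged from -0.04 for Hspb7 to -0.77 for Hspa5. After Hspa5 came Hsp90b1 at -0.40, Hspa12b at -0.38 and Hsph1 at -0.36. The higher ones were Hspa2, Dnajb1 at 0.33, Dnaja2 at 0.24, Dnajc21 at 0.22 and Bag6 at 0.10.

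By compartment, 5 of the 9 endoplasmic reticulum genes were lower in replicate 2 at an adjusted p under 0.05, and 1 (Hspa5) was called. Lower at that p were 11.9% of all genes and 23.5% of protein-coding genes at or above the members' median level. A ratio below 0 was found for 8 of the 9, with a median of -0.20. With spike-in scaling that median was 0.04 and the number below 0 was 4. The summed level was 634 TPM in replicate 1 and 409 in replicate 2. Most of this fall came from Hspa5 (367 and 204 TPM) and Hsp90b1 (179 and 130), so the sum does not describe the whole list. In TPM, Dnajc1 (5.37 in each), Dnajc10 (13.12 and 13.11) and Dnajc25 (6.87 and 6.73) were nearly level. The TPM of all members together also fell, from 5816 to 5241. Hsp90b1 had 14907 and 10526 counts, a ratio of -0.40 (-0.44 to -0.36). Dnajc3, an HSP70 helper in the reticulum lumen, had -0.31 (-0.40 to -0.21). Dnajb11 had -0.29 (-0.41 to -0.18) and Dnajb9, also known as ERdj4, -0.20 (-0.31 to -0.09). Dnajc10, a disulfide reductase, was the exception with 0.10 (-0.00 to 0.20). The list had no higher member at an adjusted p under 0.05.

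The other lists lay close to 0. The median was -0.01 over 11 heat-inducible genes, -0.03 over 10 mitochondrial genes and -0.03 over 10 striated muscle genes, and none of these lists had a called gene. At any fold 3 heat-inducible, 3 mitochondrial and 4 striated muscle genes were lower, and of these lists Dnajb1 alone was higher. Beside them stand 11.9% of all genes and 23.5% of protein-coding genes at or above the members' median level. With spike-in scaling none of the 3 lists had a lower gene. Hspa9 stood at 0.00 (-0.02 to 0.03), Hspb6 at -0.00 (-0.04 to 0.04) and Bag3 at 0.00 (-0.05 to 0.05). Hspa1a and Hspa1b had ratios of 0.39 (0.01 to 0.76) and 0.45 (0.07 to 0.84) and did not pass, with adjusted p of 0.135 and 0.0689 in the binomial test.

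**Figure D3:**
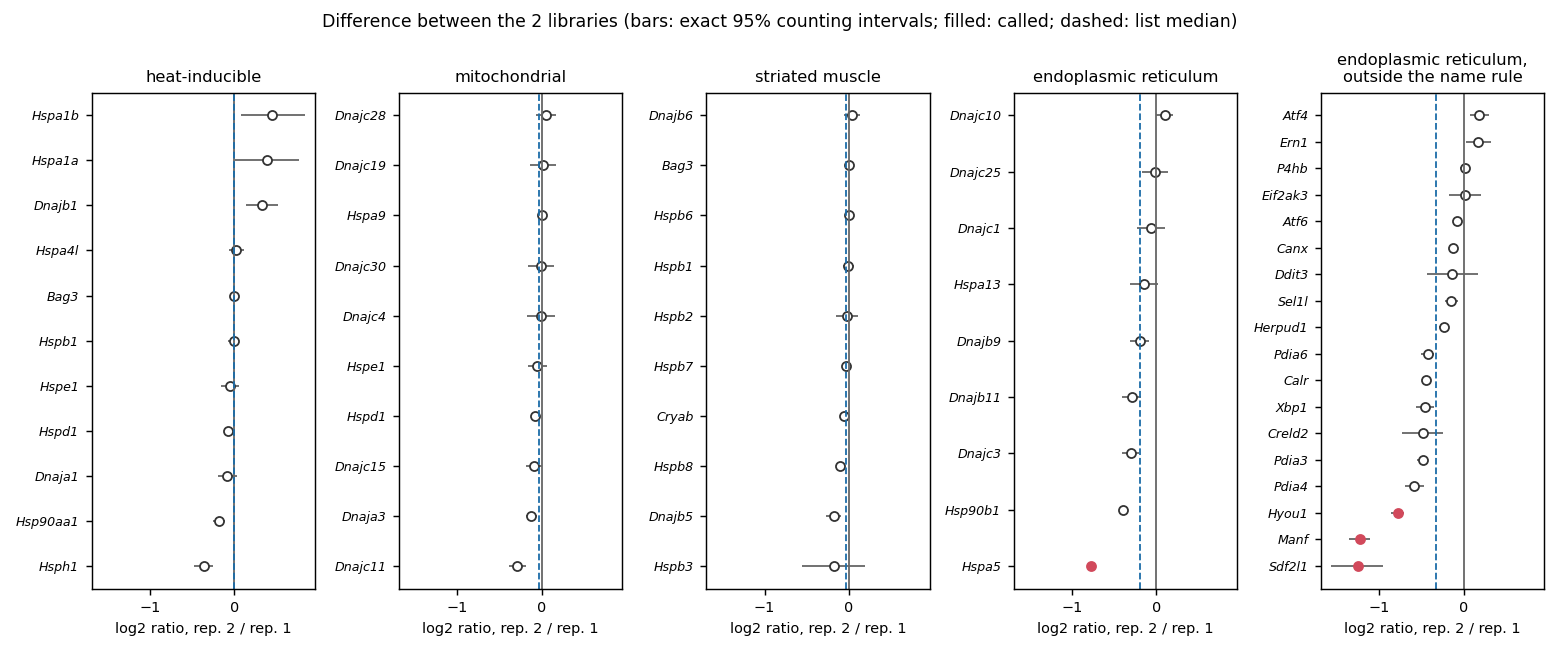
Log2 ratio of replicate 2 over replicate 1 for the genes of 4 lists of members and, at the right, for endoplasmic reticulum genes outside the name rule. The list at the right was drawn up after the values were seen. Bars are exact 95% counting intervals, filled points were called, and the dashed line is the list median. The heat-inducible, mitochondrial and striated muscle medians lie between -0.03 and -0.01, and the reticulum medians at -0.20 and -0.33.

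A further list of 18 endoplasmic reticulum folding and stress-sensing genes outside the name rule was drawn up after these values were seen, and is given as a description. Of these, 13 were lower at any fold, beside 11.9% of all genes and 23.5% of protein-coding genes at or above the members' median level. Atf4 was higher at 0.19, and the median was -0.33 (-0.09 with spike-in scaling). Called lower were 3. Sdf2l1, a partner of Hspa5, had 10.3 and 4.13 TPM, a ratio of -1.26. Manf, a secreted factor that binds Hspa5, had 87.6 and 35.7, a ratio of -1.23. Hyou1, the large HSP70 relative that serves Hspa5, had 32.5 and 16.6, a ratio of -0.78. By edgeR, Sdf2l1 (adjusted p = 0.000838) and Manf (adjusted p = 6.9e-05) passed and Hyou1 did not. Calr, a lectin chaperone, had 174 and 122 TPM, and the oxidative folding enzymes Pdia3 61.1 and 43.7 and Pdia4 21.9 and 13.8. P4hb, the most abundant such enzyme listed, was at 92.7 and 92.9. The stress sensors Atf6 (25.0 and 22.8), Ern1 (3.72 and 3.66) and Eif2ak3 (3.56 and 3.47) were not called.

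Other marker genes moved between the same libraries. All 6 red blood cell markers were called lower in replicate 2, with a median of -1.58 and a summed level of 36363 and 11883 TPM. Of 5 brown fat markers 4 were called lower, with a median of -1.32, and Ucp1 was at 52.6 and 7.95 TPM. Cardiomyocyte markers had a median of 0.04 and no called gene, endothelial markers -0.04 and fibroblast markers 0.15. At any fold, 3 of the 8 cardiomyocyte markers were lower and 5 higher at an adjusted p under 0.05 in the binomial test. Of the 5 endothelial markers 2 were lower, and of the 5 fibroblast markers 1 was lower and 3 were higher. Beside them stand 21.9% of all genes in either direction. No skeletal muscle fibre marker of 6 was detected. The part of these cell types in the endoplasmic reticulum difference was not tested, and in whole tissue fewer cells of a type and less RNA per cell cannot be told apart. Among 10 immediate early genes, which respond to many stimuli without new protein synthesis, Nr4a1 (4.01 and 35.5 TPM), Atf3 (1.81 and 6.46) and Fos (3.81 and 8.77) were called higher and Fosb (0.75 and 0.31) lower.

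Scaling touches these directions. With the spike-in RNAs as reference every ratio is raised by the same amount, so the order of genes is kept and the zero point moves. The median of all genes moved to 0.24 and that of the members to 0.22. The median of the 9 endoplasmic reticulum genes was then 0.04, and Hspa5 was at -0.53 and no longer called. On that scale Hspa2 at 0.88, Hspa1b at 0.70 and Hspa1a at 0.63 were called higher, 3 of 77 members beside 6.43% of all genes. At any fold, 2.66% of all genes were lower and 55.2% higher on it. The endoplasmic reticulum list then had 4 of 9 genes below 0, 2 lower and 2 higher at any fold and none called, and the list outside the name rule had 8 lower and 7 higher, with a median of -0.09. The heat-inducible, mitochondrial and striated muscle lists had 9, 9 and 8 higher genes and no lower one.

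The promoters were also searched, after the values were seen, for the endoplasmic reticulum stress element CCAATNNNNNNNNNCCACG on both strands. It was found in 3 of the 70 matched members (4.29%), namely Hspa5, Hsp90b1 and Dnajc3, and in 37 of all 27025 genes (0.137%). All 3 are among the 8 matched genes of the endoplasmic reticulum list, and none of the other 62 members held it. Of 15 matched genes of the reticulum list outside the name rule, 4 held it (Calr, Canx, Creld2 and Pdia6). The motif letters that are fixed stand in capitals below. The printed site of Hspa5, like those of Hspe1 and Dnajb6 above, lies within an annotated exon (GENCODE M21), and the other printed windows lie outside exons. The window of Hsp90b1 holds 2 copies, the one nearer the start on the opposite strand.
Hspa5 (chr2:34772020-34772048, plus strand): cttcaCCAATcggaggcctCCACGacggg
Hsp90b1 (chr10:86705510-86705694, minus strand): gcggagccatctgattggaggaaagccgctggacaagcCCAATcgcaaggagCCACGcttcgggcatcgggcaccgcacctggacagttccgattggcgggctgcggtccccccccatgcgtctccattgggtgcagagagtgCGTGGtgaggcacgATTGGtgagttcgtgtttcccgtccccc
Dnajc3 (chr14:118937682-118937931, plus strand): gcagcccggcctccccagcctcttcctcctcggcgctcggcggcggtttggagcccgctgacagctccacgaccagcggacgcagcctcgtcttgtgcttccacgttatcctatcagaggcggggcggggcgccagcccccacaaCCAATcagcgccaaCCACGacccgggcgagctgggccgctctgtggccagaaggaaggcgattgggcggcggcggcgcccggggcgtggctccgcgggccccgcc
The 3 genes with the element had ratios of -0.77, -0.40 and -0.31, the 3 lowest of the 9 on the list. The element was chosen after these ratios were seen, and a link between element and ratio was not tested. In the list outside the name rule the genes with the element were not the lowest: Creld2, Calr, Pdia6 and Canx had -0.49, -0.45, -0.43 and -0.12, and Sdf2l1 (-1.26) and Pdia4 (-0.58), which were lower, held no match. Manf and Hyou1 were not among the 15 matched genes. Dnajb11 and Dnajb9 come next at -0.29 and -0.20, and their windows hold no exact match, which says nothing of the factors that bind them. A letter match is a description of the sequence and not a measured site.

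Of helper genes outside the rule, only Fkbp5, a glucocorticoid-induced immunophilin, was called among the 16 partners of HSP90 and HSP70, at 27.2 and 18.0 TPM and -0.65. Of the 13 organelle chaperones, Calr, Canx (123 and 108 TPM) and the collagen chaperone Serpinh1 (121 and 86.8) were highest. Grpel2, a mitochondrial nucleotide exchange factor, was lowest at 4.41 and 3.77. Hyou1 and Sdf2l1 were the called ones. Both, like Calr and Canx, are also on the endoplasmic reticulum list outside the name rule, so these calls are the same ones.

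The 2 quantifications gave the members like levels. The second was 1.18 times the first at the median detected member and 1.16 times over detected protein-coding genes. The ratio ran from 0.714 for Bag4 to 1.997 for Dnajc15, so no member differed by over 2-fold, and 4 detected members were lower in the second. Cryab was 1.52 times higher in it. Some members share sequence with other genes. Hspb1 shares 48.8% of its 50-base stretches with the processed pseudogene Hsp25-ps1, which was itself given 22.5 and 18.7 TPM. For Hspa8 the share was 38.6%. For 71 of the 87 genes it was under 5%.

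**Figure D4:**
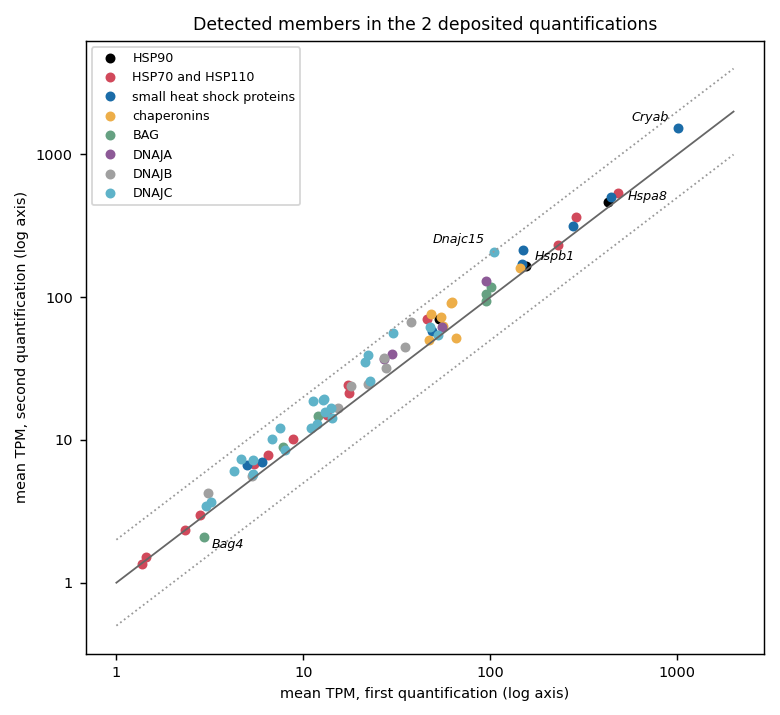
Mean TPM of the 76 detected members in the second quantification against the first, both on log axes, coloured by family. The solid line marks equal values and the dotted lines 2-fold differences. All points lie within the dotted lines, most of them above the solid one, with Dnajc15 nearest the upper limit at 1.997 times.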

How the data were processed

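Total RNA-seq libraries of 2 hearts were analysed as 1 group. Per the deposited description files, both quantifications used mouse build mm10 with annotation M21. Program names: not given in the sources used here. A gene table holds the deposited expected counts (estimated reads, shared reads divided between genes, not normalized), the authors' TPM values and the posterior SD of each count, per the file headers. The second, a transcript table of deposited estimated counts and TPM, was summed per gene. Spike-ins made up 0.532% and 0.427% of counts.

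Expected counts were rounded and compared with an exact binomial test on TMM library sizes (edgeR 4.0.16, R 4.3.3), with 0.5 added before log2. Alternatives were total counts, DESeq2 1.42.0 size factors, spike-in scaling, the second quantification, other minimums, 2-fold, and edgeR's exact test with a common dispersion (biological coefficient of variation 0.113). The comparison was tested on data simulated with counting error alone, so that check says nothing of spread beyond counting. Intervals and limits reflect counting error alone, because PCR copies cannot be told from separate molecules.

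The members, lists and tests were chosen with earlier results of these data known. Named were all members outside the J-domain families, the 5 highest and 3 lowest of each J-domain family, called members, and from each partner list the 3 highest, the lowest and called genes; other genes were named after their values were seen. Reads of the CAST/EiJ allele were counted on a C57BL/6J reference. Protein sequence features were not analysed here.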

Additional observations from a re-analysis of the deposited data

How the results depend on the processing

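No paired analysis was possible because the 2 libraries form a single group. The number of detected members stayed at 76 in the second quantification, at a minimum of 0.5 TPM and in each library alone, and was 64 at a minimum of 5 TPM. Leaving out a replicate gave 1.402% to 1.414% of protein-coding TPM, and the second quantification 1.365%. When counts were not divided by length, the family shares of the genes that led in TPM were 33.6% for Hspa8, 24.0% for Cryab, 35.6% for Hspd1, 39.1% for Dnaja2, 14.0% for Dnajb2, 7.67% for Dnajc15 and 20.4% for Bag1. In the second quantification they were 54.5% for Cryab, 24.4% for Hspd1, 26.2% for Dnajb2, 30.8% for Dnajc15 and 34.4% for Bag1. Not all of these genes led in counts. In both libraries Hspb7 had more counts than Cryab, Dnajb4 more than Dnajb2, Dnajc5 more than Dnajc15 and Bag3 more than Bag1. Of the 2 members called, 1 (Hspa5) was called with total counts, with the second quantification and with a summed count of at least 500, and 0 at 2-fold and by edgeR. The members' median log2 ratio was 0.22 with spike-in scaling. The cause of these changes was not tested, except that lengths enter TPM and not counts. Depth limits the lowest genes most: the counting interval of Hspa1a, at 1.22 and 1.53 TPM, ran from 0.01 to 0.76 on the log2 scale.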
